A study of Mus musculus with 8 samples.

Results

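10 genes that move, store or sense iron were examined in cultured mouse macrophages with and without acetylated LDL. They are the exporter *Slc40a1*, the ferroxidase *Cp*, the uptake genes *Tfrc*, *Slc11a1*, *Slc11a2* and *Cd163*, the ferritin subunits *Fth1* and *Ftl1*, and the sensing genes *Hfe* and *Ireb2*. The probes were chosen by gene symbol, every probe carrying one of these symbols being taken, which gave 25 of the 45281 probes on the array. The symbols themselves were selected with the Ac-LDL comparison in these arrays already known, so the difference of each of the 10 genes is given as a description, without a P value.

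The series held 8 Illumina Mouse WG-6 v2.0 bead arrays of thioglycollate-elicited peritoneal macrophages from C57/BL6 mice aged 8 weeks, with no other genotype or allele named. Thioglycollate is an irritant that recruits monocyte-derived macrophages to the peritoneum. The 4 Ac-LDL samples had been kept for 24 h with 120 μg per ml of acetylated LDL, a chemically modified LDL that macrophages take in through scavenger receptors, and the 4 control samples were mock treated for the same 24 h. Each group was numbered as biological replicates 1 to 4, and the labels did not say how many mice stood behind a replicate. Replicates 1 and 2 of both groups shared one bead chip, called slide 1 here, and replicates 3 and 4 shared the other, slide 2. The comparison asked which transcripts differ when macrophages are loaded with cholesterol.

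Iron leaves a macrophage through ferroportin, the product of *Slc40a1* and the known cellular iron exporter of mammals, and a ferroxidase such as ceruloplasmin (*Cp*) oxidizes it for loading onto transferrin. Macrophages of spleen and liver recycle the iron of aged red cells by this route, and the hormone hepcidin closes it by sending ferroportin to degradation. Inside the cell, surplus iron is held in ferritin, and iron regulatory proteins, one of them encoded by *Ireb2*, bind the messages of the ferritin subunits, ferroportin and the transferrin receptor and so adjust their translation or decay to the iron at hand. These are textbook relations and none was measured here.

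The probes are the measuring device of a bead array, each one a sequence of 50 bases read at one place in a transcript. The first 30 bases are printed, 5′ to 3′, for the one probe on which the ferroportin value rests, for the 4 probes of *Slc11a1*, which are compared along its transcript, and for the bright and the dim probe of *Ftl1*. Capitals mark the 9 bases that lie before an exon junction in the only *Slc11a1* probe split between exons in the deposited annotation.
Slc40a1 ILMN_2747923: ggagactgactgccatgcattgctgtgagc
Slc11a1 ILMN_2674884: gccctatcggtgtccttcatcatcaacctc
Slc11a1 ILMN_2692797: TATCAAGGAggtgtgatcctaggctgtctc
Slc11a1 ILMN_2983516: cccagaacacctcaaacagaactgccacaa
Slc11a1 ILMN_2675811: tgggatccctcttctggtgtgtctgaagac
Ftl1 ILMN_2816707: ccggagggtcaacatgctataaaaggagcg
Ftl1 ILMN_1229517: gcagctttgtaaccgtcctccagcctctgt
The *Slc40a1* probe starts 3141 bases into its transcript, and the deposited annotation places it at chr1:45965104-45965153 on the minus strand. The 4 *Slc11a1* probes lie on the plus strand of the same chromosome, from chr1:74428385-74428434 for ILMN_2674884 to chr1:74432557-74432606 for ILMN_2675811. The annotation names no genome build, and only 2 of the 17 member probes with coordinates, both of *Tfrc*, fell inside the GRCm38.p6 span of their gene, so these positions are not those of GRCm38 and no exon or UTR was read from them.

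Of the 25 probes, 19 were tested. A probe was tested where the detection P value did not exceed 0.05 on 4 or more arrays. The 19 probes cover 9 of the 10 genes, and all 19 were detected on all 8 arrays. The tenth gene, *Cd163*, encodes the scavenger receptor that clears haemoglobin bound to haptoglobin. Its 2 probes were detected on 0 of the 8 arrays, with deposited signals of 34.4 to 47.8 where the median of all probes on an array was 42.5 to 46.4. One probe of *Slc11a2* and 3 of *Cp* were likewise detected on none. Values below are log2 intensities after background correction and quantile normalization. A difference is the Ac-LDL mean minus the control mean on that scale. The error beside a difference is limma's standard error, taken, unless stated, from a model that ignores slide and replicate number. Such an error also includes variation between slides. For *Slc40a1* it was 0.31, against 0.11 when replicate number was allowed for and 0.20 when slide was. For *Tfrc* probe ILMN_2619848 the 3 errors were 0.23, 0.10 and 0.12. Because hybridization strength differs between probes, no level of one probe is set against that of another as an amount of transcript.

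All 7 macrophage markers examined, among them *Emr1* and *Csf1r*, were detected, with summed deposited signals of 34316 to 48164 in control and 34230 to 44315 in Ac-LDL samples. Of 5 markers of resident peritoneal macrophages, 4 were detected and *Timd4* was not, with sums of 1688 to 2442 and 1788 to 2241. Detected markers numbered 0 of 7 for erythroid cells, 0 of 4 each for eosinophils and mast cells, 1 of 4 for T cells, 2 of 4 for B cells and 1 of 5 for neutrophils. For fibroblasts and mesothelium, 5 of 6 were detected, with summed deposited signals of 12884 to 18208 in control and 12710 to 14293 in Ac-LDL samples. Whether these cells contributed to any value was not tested. In whole cultures of this kind, fewer cells with a transcript and less of it per cell cannot be told apart.

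Ferroportin had the largest difference of the 9 measured genes. Its log2 intensity was 6.60, 6.22, 7.58 and 6.95 in control replicates 1 to 4 and 7.73, 6.90, 8.09 and 7.73 in Ac-LDL replicates 1 to 4. The Ac-LDL sample was the higher one in all 4 replicate pairs, by 1.13, 0.68, 0.51 and 0.78. The groups overlapped nonetheless, because control replicates 3 and 4 lay above Ac-LDL replicate 2. Group means were 6.84 ± 0.58 and 7.61 ± 0.51 (SD, n = 4), a difference of 0.77 ± 0.31 on the log2 scale or 1.71-fold. Within slide 1 the difference was 0.90 and within slide 2 it was 0.65, and in neither slide did the 2 Ac-LDL values meet the 2 control values. The same held for *Hfe* probe ILMN_2870696, *Slc11a1* probes ILMN_2674884 and ILMN_2692797, and *Ftl1* probe ILMN_1229517, which differed by only 0.08. The share over all genes was not worked out, so nothing is read from this separation. Detected macrophage markers are set beside it. The genes given with P values were picked after their values were seen, so these P values are no support. *Vsig4*, a complement receptor of resident macrophages, differed by 0.72 (limma, adjusted P = 0.961, or 0.022 with the replicate block), and the brighter probe of *Mertk*, a receptor for dying cells, by 0.56 (0.817, or 0.036 with the block). The dimmer *Mertk* probe gave 0.20 (0.987, or 0.427 with the block). *Icam2* differed by 0.30, *Gata6* by 0.00048, *Selp* by -0.32 and *Cd14*, a lipopolysaccharide co-receptor, by -0.48 (0.960, or 0.081 with the block). At their brightest probes *Itgam* differed by 0.35, *Emr1* by 0.20, *Cd68* by 0.02, *Lyz2* by -0.007 and *Csf1r* by -0.02. The part of such markers in the *Slc40a1* value was not tested. The whole difference rests on the single *Slc40a1* probe printed above, whose deposited signal ran from 89.3 to 299.6.

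**Figure D1:**
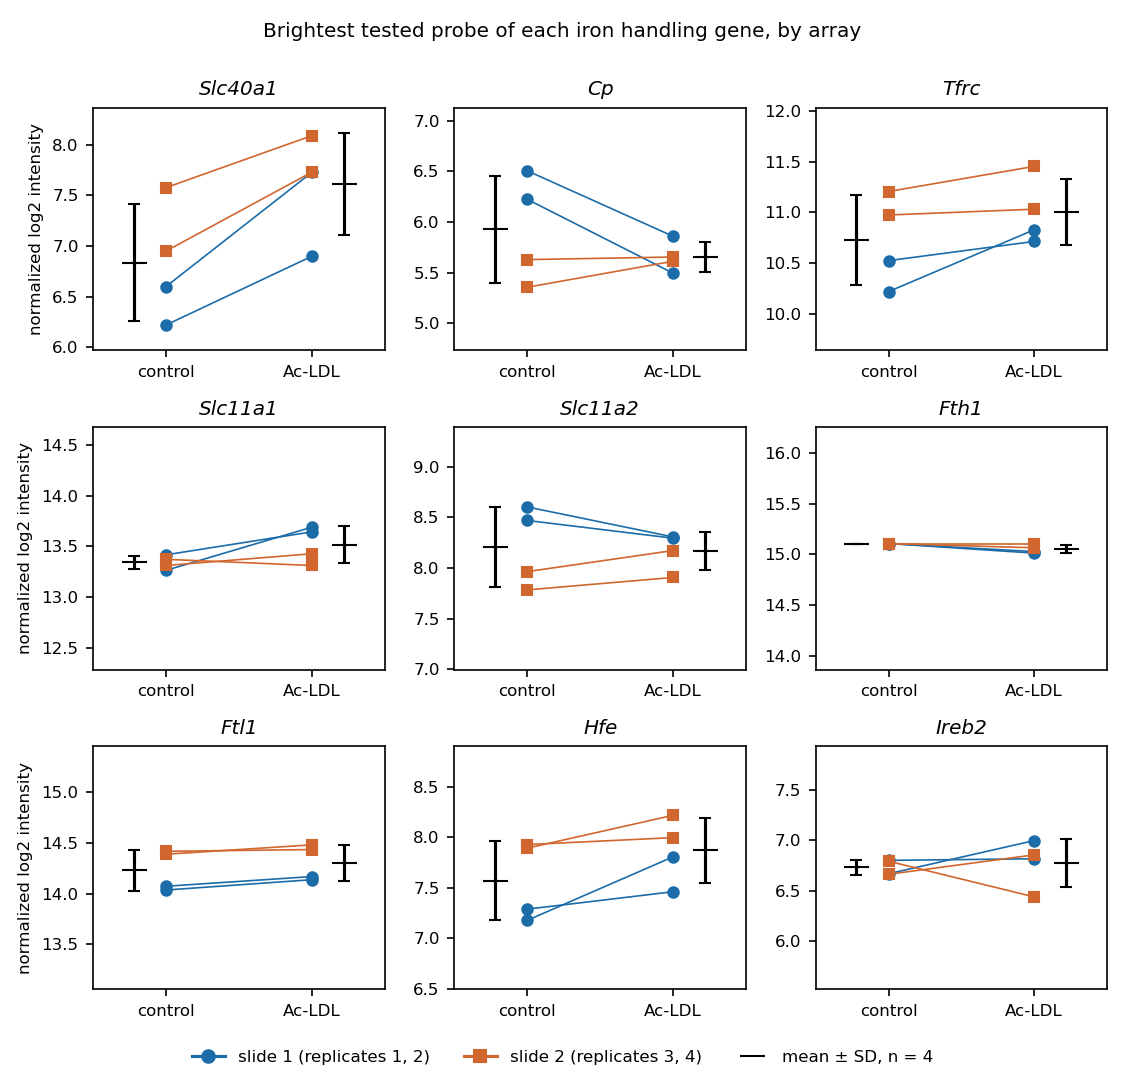
Normalized log2 intensity (vertical axis) of the brightest tested probe of each iron handling gene on the 4 control and 4 Ac-LDL arrays. Lines join arrays of one replicate number, circles are slide 1 and squares slide 2, black marks are the group mean ± SD (n = 4), and every panel spans the same log2 range. All 4 *Slc40a1* lines slope upwards, by 0.51 to 1.13, while the *Cp* lines fall on slide 1 and not on slide 2.

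*Slc40a1* ranked 7 of the 12423 genes tested by the size of a positive difference, and 40 when falls were ranked with rises. The gene was chosen with this comparison known, so its rank is no support. Ranking by size also ignores error, and *Slc40a1* had the largest standard error of the 9 genes, 0.31. By limma's P value without a block its probe ranked 562 of the 17122 tested probes. A gene is represented here by its brightest tested probe. Over all genes the median size of a difference, whatever its sign, was 0.09. The histogram of all tested genes puts *Slc40a1* in the right tail. By the same ranking of rises *Hfe* was at 396, *Tfrc* at 490 and *Slc11a1* at 1310, while *Cp* was near the other end at 11930. *Ftl1*, *Ireb2*, *Slc11a2* and *Fth1* differed by less in size than that median.

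**Figure D2:**
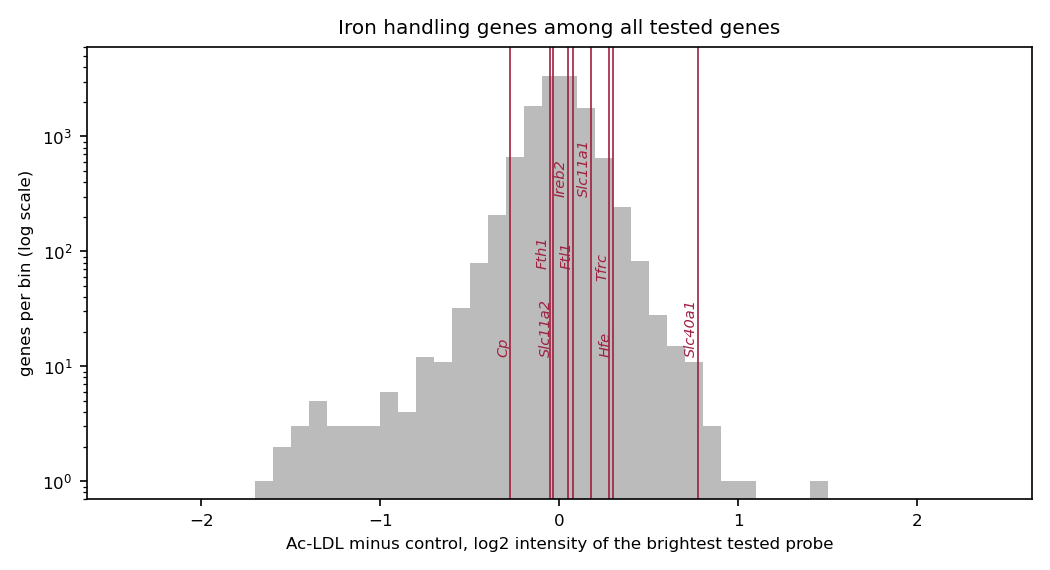
Number of genes (vertical axis, log scale) in bins of the Ac-LDL minus control difference of the brightest tested probe (horizontal axis, log2 intensity) over the 12423 tested genes, with a line for each of the 9 measured iron handling genes. *Slc40a1* lies at 0.77, and the other 8 genes lie between -0.27 (*Cp*) and 0.30 (*Hfe*).

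Counts of calls over the 9 genes are given only as a record of the contrast by which the genes were known, and nothing is read from them. At a Benjamini-Hochberg adjusted P under 0.05 in limma, 0 of the 9 genes were called, where 0.0483% of all tested genes and 0.0409% of all tested probes were called. At an unadjusted P under 0.05, 1 of the 9 passed by its brightest tested probe, *Slc40a1*, against 5.21% of all genes. The dimmer *Slc11a1* probes ILMN_2674884 and ILMN_2692797 also passed, with smaller P values than *Slc40a1*, but do not enter this count. The methods' t-test called 0 after adjustment. Without adjustment 1 passed, against 6.13% of all genes, and it was *Fth1*, whose control values quantile normalization made equal, not *Slc40a1*. With the replicate number as a block, which compares each Ac-LDL sample with the control of its own number, 1 of 9 was called (*Slc40a1*, 0.77 ± 0.11) against 0.491% of all genes, and with the slide as a block 0 of 9 against 0.346%. The call of *Slc40a1* with the replicate block was kept when pair 2 was left out and lost without pair 1, 3 or 4, its difference then being 0.66 to 0.86. Groups did not overlap for 0 of the 9 genes in either direction, against 2.12% of all genes higher and 1.75% lower with Ac-LDL. 4 of the 9 genes were higher with Ac-LDL in all 4 pairs (*Slc40a1*, *Tfrc*, *Ftl1* and *Hfe*), against 11.6% of all genes, and 0 were lower in all 4, against 10.9%, *Fth1* being lower in 3 pairs and equal in the other. Among probes that were not the brightest, *Slc11a1* ILMN_2674884 and ILMN_2692797 and *Tfrc* ILMN_2860804 were also higher in all 4 pairs. *Slc11a2* probe ILMN_1243129 was lower in all 4. The median difference of the 9 genes was 0.08, beside -0.00059 over all tested genes.

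*Cp*, whose product oxidizes exported iron, was read by 2 tested probes that went opposite ways on the slides. Probe ILMN_3083163 read 6.51, 6.22, 5.36 and 5.63 in control replicates 1 to 4 and 5.86, 5.49, 5.61 and 5.65 in Ac-LDL replicates 1 to 4. Both control values of slide 1 stood above every other array, and the remaining 6 arrays lay between 5.36 and 5.86. The difference over all arrays was -0.27 ± 0.23, made of -0.69 within slide 1 and 0.14 within slide 2. The second probe, ILMN_2520239, gave -0.15 over all arrays, -0.45 within slide 1 and again 0.14 within slide 2. Both probes were dim, with deposited signals no higher than 125.8, and no difference common to the slides was measured for *Cp*.

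*Tfrc* encodes transferrin receptor 1, which brings transferrin-bound iron into the cell and whose message iron regulatory proteins stabilize. Probe ILMN_2619848 read 10.22, 10.52, 11.21 and 10.97 in control and 10.83, 10.71, 11.45 and 11.03 in Ac-LDL replicates 1 to 4. Each Ac-LDL value was above the control of its number, yet the groups overlapped widely, since the slide 2 arrays of both groups stood above the slide 1 arrays. The difference was 0.28 ± 0.23 over all arrays, 0.40 within slide 1 and 0.15 within slide 2. A neighbouring probe, ILMN_2860804, whose sequence starts 86 bases further along the transcript, gave a difference of 0.18, and it too was higher in all 4 pairs.

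*Slc11a1*, or NRAMP1, is a phagosomal metal transporter of macrophages known from resistance to intracellular microbes. It was read by 4 probes, all with a higher Ac-LDL mean. Probe ILMN_2674884 read 9.21, 9.33, 9.53 and 9.34 in control and 9.69, 9.51, 10.19 and 9.72 in Ac-LDL replicates, so that the groups met only where Ac-LDL replicate 2 fell just under control replicate 3. Its difference was 0.42 ± 0.14. Probe ILMN_2692797, over the exon junction marked above, read 8.03, 8.31, 8.55 and 8.16 in control and 8.68, 8.49, 9.03 and 8.64 in Ac-LDL replicates, and the same 2 arrays overlapped. The difference was 0.45 ± 0.15, with 0.42 within slide 1 and 0.48 within slide 2. For both of these probes Ac-LDL was the higher sample in all 4 pairs.

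The other 2 *Slc11a1* probes lie nearer the 3′ end of the transcript and gave smaller values. The brightest, ILMN_2675811, read 13.26, 13.42, 13.37 and 13.31 in control and 13.69, 13.64, 13.31 and 13.43 in Ac-LDL replicates. Its slide 1 Ac-LDL arrays stood above all controls, while one slide 2 Ac-LDL array stood among them and the other just over the highest. The difference was 0.18 ± 0.11 over all arrays, 0.33 within slide 1 and 0.03 within slide 2. Probe ILMN_2983516 gave 0.21 ± 0.10, with 0.34 within slide 1 and 0.08 within slide 2. Averaged over each set of 2 probes, the upstream difference exceeded the downstream one by 0.20, 0.61 and 0.28 in pairs 1, 3 and 4 and fell short of it in pair 2 (-0.11). The upstream probes were also the dimmer ones, with deposited signals of 306.7 to 1166.7 against 2126 to 12116.7 downstream. Position and brightness therefore cannot be told apart here. This contrast between probe sets was noticed in the data and was not tested.

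**Figure D3:**
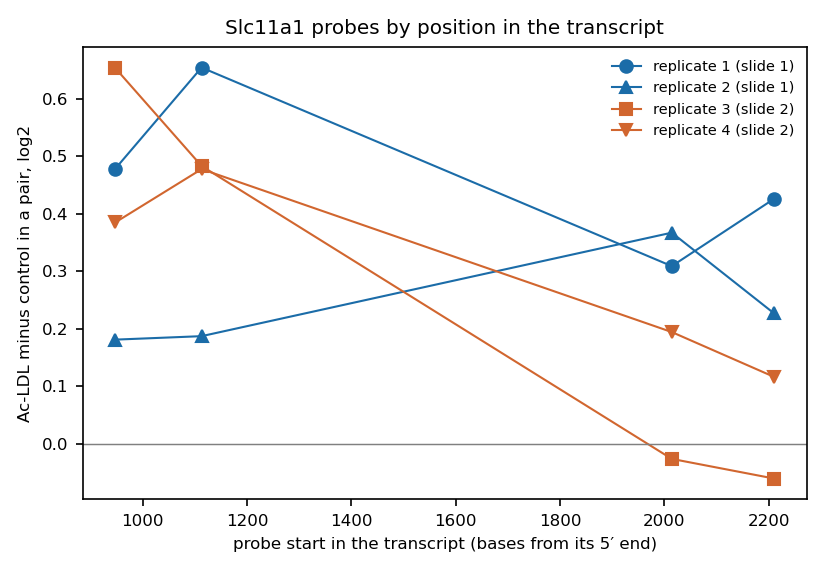
Ac-LDL minus control difference within each replicate pair (vertical axis, log2 intensity) for the 4 *Slc11a1* probes, placed by where the probe starts in the transcript (horizontal axis, bases from the 5′ end). Pairs 1, 3 and 4 are higher at the 2 upstream probes than at the 2 downstream probes on average, pair 2 is not, and pair 3 lies just under 0 at both downstream probes. The 2 upstream probes are also the 2 dimmer ones.

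*Slc11a2* encodes DMT1, which carries ferrous iron out of the endosome after transferrin has released it. Probe ILMN_2665063 read 8.47, 8.60, 7.96 and 7.78 in control and 8.30, 8.31, 8.17 and 7.91 in Ac-LDL replicates 1 to 4. The slide 1 arrays were the 4 highest and the groups were mixed, with a difference of -0.04 ± 0.18 that was -0.24 within slide 1 and 0.17 within slide 2. The other tested probe, ILMN_1243129, read 7.27, 7.22, 6.86 and 6.80 in control and 6.93, 6.87, 6.77 and 6.73 in Ac-LDL replicates. It was lower with Ac-LDL in all 4 pairs, and its difference was -0.21 ± 0.13, or -0.35 within slide 1 and -0.08 within slide 2. The 2 probes are annotated to different transcript records, and they differed in sign on slide 2 only.

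Ferritin, the storage shell, is built of heavy (*Fth1*) and light (*Ftl1*) subunits, and their 4 probes differed by less than 0.1 in size. *Fth1* probe ILMN_2876066 read 15.11 on all 4 control arrays and 15.03, 15.01, 15.11 and 15.07 in Ac-LDL replicates, a difference of -0.05 ± 0.08. The equal control values come from quantile normalization, which gives one value to one rank, and this probe ranked 2 on each control array and between 2 and 5 on the 8 arrays. With arrays scaled to a common median instead, its difference was -0.07. The second *Fth1* probe, ILMN_2876071, read 14.68, 14.64, 14.87 and 14.77 in control and 14.71, 14.85, 14.87 and 14.87 in Ac-LDL replicates, and differed by 0.08 ± 0.09.

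*Ftl1* probe ILMN_1229517 read 14.07, 14.04, 14.42 and 14.39 in control and 14.17, 14.14, 14.44 and 14.48 in Ac-LDL replicates. The samples paired by number differed little, each Ac-LDL array being slightly the higher, and the difference was 0.08 ± 0.13. It was 0.01 when arrays were scaled to a common median. The other *Ftl1* probe, ILMN_2816707, starts at base 1 of its annotated transcript, had deposited signals of only 56.7 to 74.8, and differed by -0.05 ± 0.14. The array also carries 4 probes of 3 other ferritin light chain symbols, and cross-binding among these near-copies was not tested.

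*Hfe* encodes the haemochromatosis protein, a partner of transferrin receptor 1 that takes part in setting hepcidin. Probe ILMN_2870696 read 7.29, 7.18, 7.93 and 7.89 in control and 7.46, 7.80, 8.00 and 8.22 in Ac-LDL replicates 1 to 4. Ac-LDL was the higher sample of each pair, but slide 2 controls exceeded both slide 1 Ac-LDL arrays. The difference was 0.30 ± 0.21, with 0.40 within slide 1 and 0.20 within slide 2. The second probe, ILMN_2592519, gave the same 0.30 (± 0.18), from 0.50 within slide 1 and 0.10 within slide 2. It was higher with Ac-LDL in 3 pairs and slightly lower in pair 4, by -0.018, and its groups overlapped on slide 2.

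*Ireb2* encodes iron regulatory protein 2, which iron marks for degradation. Its probe ILMN_3161612 read 6.67, 6.80, 6.66 and 6.79 in control and 7.0, 6.82, 6.85 and 6.44 in Ac-LDL replicates, with Ac-LDL replicate 4 the lowest and Ac-LDL replicate 1 the highest of the 8 arrays. The difference was 0.05 ± 0.12, and that of the second probe, ILMN_1225719, was 0.06 ± 0.10. Both changed sign when arrays were scaled to a common median, to -0.05 and -0.03, so no direction is given for *Ireb2*.

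**Figure D4:**
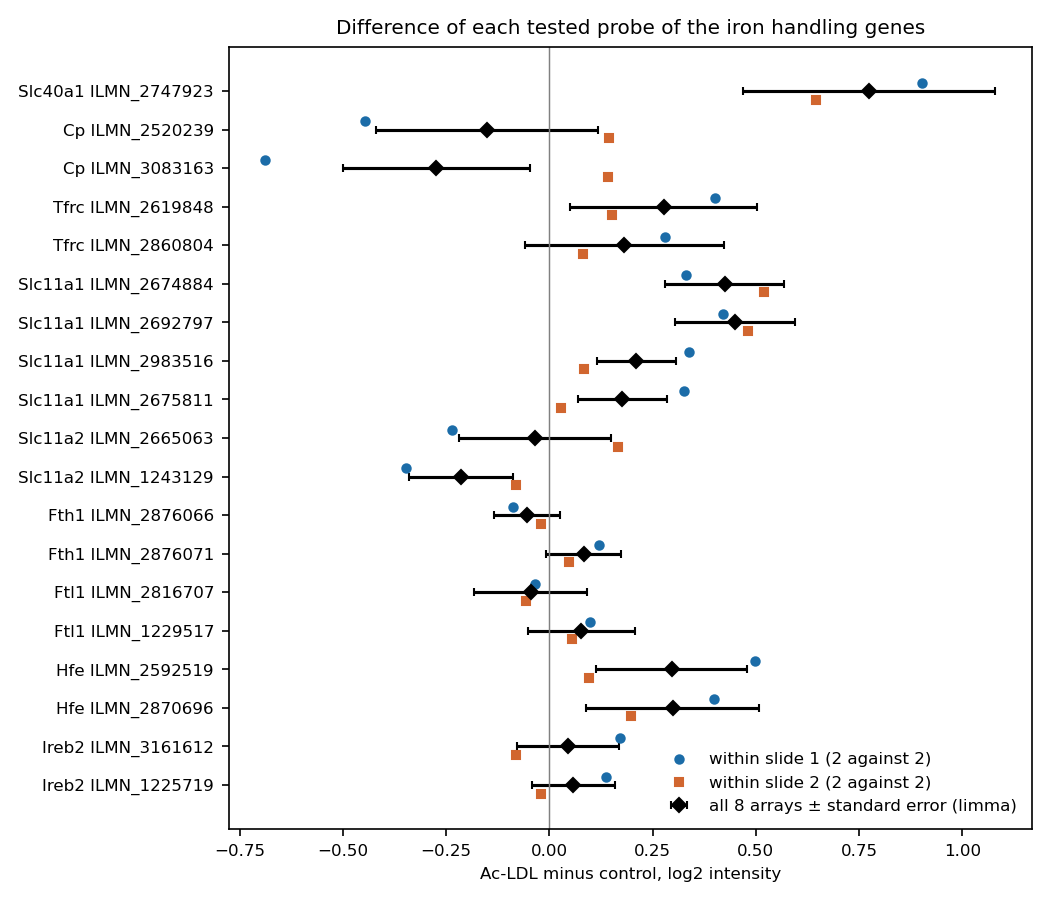
Ac-LDL minus control difference (horizontal axis, log2 intensity) of the 19 tested probes of the 9 measured genes. Diamonds with bars are the difference over all 8 arrays ± limma's standard error, circles and squares the difference within slide 1 and slide 2. *Slc40a1* lies at 0.77 with both slides above 0.6, both *Cp* probes split between slides, and the ferritin probes lie within 0.1 of 0.

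The pattern of *Slc40a1* over the 8 arrays was compared with that of every other tested gene. The 5 most alike by Pearson's r were the predicted gene LOC100043402 (r = 0.989), *Birc5* (0.969), an inhibitor of apoptosis expressed in dividing cells, *Clecsf12* (0.964), an older symbol for the beta-glucan receptor Dectin-1, *Thtpa* (0.963), a thiamine triphosphatase, and *Cd44* (0.960), the hyaluronan receptor. After the mean of each slide had been removed, these 5 ranked 1, 4, 22, 5 and 19. Among the iron handling genes themselves the values were 0.824 for *Tfrc*, 0.752 for *Ftl1*, 0.698 for *Hfe*, 0.120 for *Slc11a1*, -0.00779 for *Ireb2*, -0.167 for *Fth1*, -0.540 for *Slc11a2* and -0.612 for *Cp*. With slide means removed they were 0.729, 0.846, 0.454, 0.606, 0.343, -0.597, -0.0608 and -0.379 in the same order, so that *Ftl1* became the highest and *Fth1* the lowest. The 8 points share their arrays, slides and treatment groups, so these figures describe likeness in this series only.

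Iron handling draws on many further genes, and 90 of them, none a member of the set above, were followed in 6 lists. Of these, 86 were on the array and 61 were tested, 30 with a positive and 31 with a negative difference and a median of -0.02. In limma, 0 of the 61 were called higher and 0 lower at an adjusted P under 0.05, with either block as well as without, and the methods' t-test also called 0. At an unadjusted P under 0.05 without a block, 0 were higher and 1 was lower (*Nfu1*), against 5.21% of all tested genes in either direction. With the replicate block the counts were 5 and 3. The share over all genes was not worked out for that block, so nothing is read from these counts. Groups did not overlap for 2 of the 61 genes, *Bola3* and *Nfs1*, both higher with Ac-LDL, and for 0 genes lower. Over all tested genes the shares were 2.12% higher and 1.75% lower, so nothing is read from this count. The genes named from here on are those with the largest rise and the largest fall of each list, and none passed the adjusted test.

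In the transferrin cycle and other uptake routes, 7 of 16 listed genes were tested, 4 positive and 3 negative. *Trf*, transferrin itself, read 10.60, 10.52, 11.13 and 11.10 in control and 10.76, 10.61, 11.52 and 11.42 in Ac-LDL replicates, higher in all 4 pairs by 0.08 to 0.39. The difference was 0.24 ± 0.23 (limma, adjusted P = 0.983). *Steap1*, of a family of endosomal and surface metalloreductases, had the lowest difference of the list at -0.07 ± 0.14. Among ferritin chaperones, ferritin turnover and iron sensing, 8 of 9 were tested, 4 in each direction. *Epas1*, the hypoxia-inducible factor 2α gene, differed by 0.26 ± 0.17 (adjusted P = 0.961) at its brightest probe and by -0.21 at the other, which was lower in all 4 pairs, so no direction is given for it. *Aco1*, which encodes iron regulatory protein 1, differed by -0.32 ± 0.15 (adjusted P = 0.946), although in 1 of the 4 pairs the Ac-LDL sample was the higher.

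Among export oxidases and the hepcidin axis, 8 of 16 were tested, again 4 in each direction. The lowest value was that of *Smad1*, a transducer of BMP signals, at -0.17 ± 0.12 for its brighter probe and -0.02 for the other, and the highest that of its inhibitor *Smad6* at 0.18 ± 0.14. In haem uptake, transport and breakdown, 13 of 16 were tested, 8 positive and 5 negative, with a median of 0.11. *Hmox1*, haem oxygenase 1, which frees iron from haem, read 8.28, 8.12, 8.83 and 8.18 in control and 8.26, 8.83, 9.13 and 8.87 in Ac-LDL replicates. It was higher in 3 of 4 pairs, by 0.42 ± 0.21 over all arrays (adjusted P = 0.949, or 0.224 with the replicate block). *Hp*, which encodes haptoglobin, had the largest negative value, -0.44 ± 0.29 (adjusted P = 0.961), made of -0.94 within slide 1 and 0.05 within slide 2. The other 2 *Hp* probes gave -0.45, lower in all 4 pairs (adjusted P = 0.946), and -0.24, lower in 2 of 4.

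In haem synthesis, 6 of 9 genes were tested, 2 positive and 4 negative, from -0.11 ± 0.13 for the brighter probe of *Ppox*, protoporphyrinogen oxidase, to 0.09 ± 0.10 for *Alad*, porphobilinogen synthase, which read -0.035 under median scaling. The other *Ppox* probe gave 0.13, so neither gene has a settled direction. In mitochondrial iron and iron-sulphur cluster assembly, 19 of 24 were tested, 8 positive and 11 negative. *Bola3* and *Nfu1* both act late in handing clusters to mitochondrial enzymes. *Bola3* read 9.04, 9.22, 9.14 and 9.03 in control and 9.25, 9.38, 9.37 and 9.24 in Ac-LDL replicates, a difference of 0.20 ± 0.09 (adjusted P = 0.946) with every Ac-LDL array above every control. *Nfu1* read 6.62, 6.19, 6.64 and 6.61 in control and 6.02, 6.18, 6.0 and 6.41 in Ac-LDL replicates, lower in all 4 pairs, with a difference of -0.36 ± 0.13 (adjusted P = 0.854). *Nfs1*, the cysteine desulphurase that supplies sulphur to the cluster, was named only for its lack of overlap and differed by 0.14 ± 0.09 (adjusted P = 0.961) at its brightest probe and by -0.10 to 0.02 at the other 3.

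**Figure D5:**
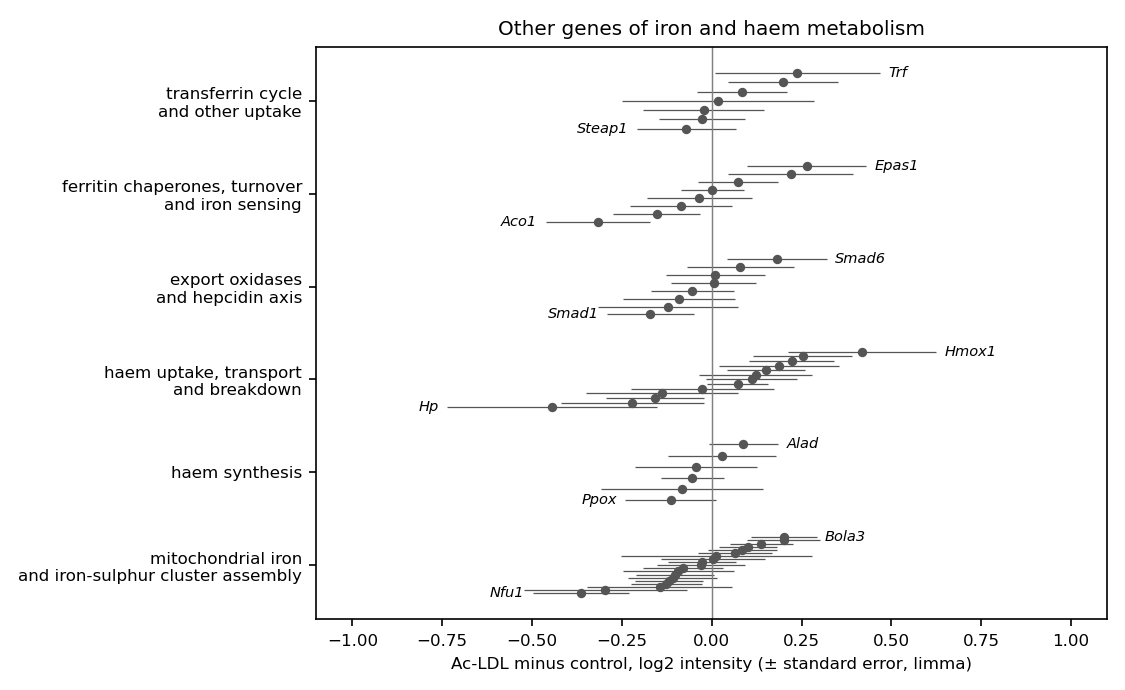
Ac-LDL minus control difference (horizontal axis, log2 intensity) ± limma's standard error for the 61 tested genes of the 6 further lists (rows), each by its brightest tested probe and sorted by value within its list. The gene with the largest rise and the one with the largest fall of each list are labelled, and the values run from -0.44 (*Hp*) to 0.42 (*Hmox1*).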

How the data were processed

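Per the labels, biotin-labelled cRNA was made from total RNA for Illumina Mouse WG-6 v2.0 bead arrays. The study's methods also name an mRNA purification. Per the file headers and labels, the authors deposited BeadStudio signals, the mean bead intensity per probe, neither background-corrected nor normalized, with a detection P value (p-value against negative controls), the bead standard error of that signal and the count of beads. Probes of the 10 genes had 25 to 69 beads per array. The number of arrays limits the precision.

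Signals were corrected by normexp with the deposited detection p-values (offset 16), quantile normalized and log2 transformed (neqc, limma 3.58.1, R 4.3.3). The 17122 probes (12423 symbols) with detection P at most 0.05 on at least 4 arrays entered a 2-group limma model, without a block as the study's test was unpaired, with Benjamini-Hochberg adjustment over all tested probes. A gene was read by its tested probe of highest mean. The procedure was run on simulated data with noise independent between arrays and planted differences larger than that of *Slc40a1*. The simulation held no variation shared by a slide or a pair, so it does not show how the procedure fares on these arrays. The 10 genes, the 6 further lists and the markers were chosen with earlier results of these data known. Named were all members, the largest rise and fall of each list, any gene of a list called, and the 5 genes most correlated with *Slc40a1*.

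Deviations from group means of same-numbered arrays correlated at 0.579, 0.479, 0.468 and 0.629, all over the cut-off of 0.1 set for pairing. Arrays of different numbers on one slide correlated at 0.188 to 0.447, also over 0.1. The cut-off therefore cannot tell a replicate pair from a shared slide, and reading the numbers as pairs is an assumption. Arrays of different slides correlated at -0.318 or below. Alternatives were other background, scaling, offset, filter, prior, test and probe choices, the replicate or slide as a block, each slide alone, and each array left out. Leaving out replicate pairs under the block was added after the data were seen, as was centring each slide for the likeness to *Slc40a1*. Reference gene spans were those of RefSeq, GRCm38.p6.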

Additional observations from a re-analysis of the deposited data

Results flagged for a closer look

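2 of 62 groups of 4 values, each group being one tested probe of the 10 genes or of a named gene of the further lists in one treatment, held an array far from the other 3. Chance alone gives about 5% of groups, or 3.1. *Fth1* probe ILMN_2876071 read 14.71 in Ac-LDL replicate 1, where the other Ac-LDL arrays lay between 14.85 and 14.87. Quantile normalization gave Ac-LDL replicates 3 and 4 one equal value. The deposited signals of Ac-LDL replicates 1 to 4 were 26182, 27689, 31403 and 30359, where replicate 1 was not far from replicate 2. *Nfu1* read 6.19 in control replicate 2, where the other controls lay between 6.61 and 6.64.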

How the results depend on the processing

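The *Slc40a1* difference stayed positive in all 18 alternatives, at 0.62 to 0.67 under the other background, scaling and offset settings and 0.57 to 1.02 with single arrays left out. The number of the 9 genes called stayed 0 except for 1 with the replicate block, which changed no call among the 61 further genes, where 0 were called throughout. Probes called over the whole array numbered 7, against 76 in the fit with the replicate block and 55 where slide was the block. They were 26 under median scaling, 15 with an intensity trend in the prior, 0 without a detection filter and 0 by the methods' t-test. With single arrays left out the count ran from 0 to 15, being 0 without Ac-LDL replicate 1, 2 or 3 or control replicate 4, 1 without Ac-LDL replicate 4 and 15 without control replicate 2. The median difference of the 9 genes was 0.08, against 0.17 within slide 1, 0.14 within slide 2, 0.014 under median scaling, 0.05 as the mean over probes and 0.03 (without Ac-LDL replicate 3) to 0.16 (without Ac-LDL replicate 4) with single arrays left out. *Alad* turned to -0.035 under median scaling, and *Steap1*, at -0.15 to 0.041 with single arrays left out, turned positive without Ac-LDL replicate 4. The cause of these shifts was not tested. *Cp*, *Ireb2* and the dim *Ftl1* probe gave values near background or close to 0, whose sign these 8 arrays cannot settle. Nor is a sign settled for *Slc11a2* probe ILMN_2665063, at -0.18 to 0.098 with single arrays left out. For *Fth1* the probes differed in sign, at -0.05 and 0.08.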

Other observations

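Most of the iron handling genes differed more between the slides than between the groups. The mean of the 4 slide 2 arrays minus that of the 4 slide 1 arrays, each slide holding 2 arrays of each group, was 0.73 for *Slc40a1*, 0.60 for *Tfrc*, 0.57 for *Hfe* and 0.33 for *Ftl1*. It was -0.46 for both *Slc11a2* and *Cp*, -0.15 for *Slc11a1*, -0.13 for *Ireb2* and 0.03 for *Fth1*. For *Tfrc*, *Hfe*, *Ftl1*, *Slc11a2*, *Cp* and *Ireb2* the slide difference was larger in size than the Ac-LDL difference of the same probe.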
